A study of Mus musculus with 30 samples.

Results

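The genes described are 41 mouse interferon-stimulated genes, which were taken from the table by a list of symbols. The list was drawn up with earlier results of these data known. Of them, 35 are type I members, best known as targets of interferons alpha and beta, and 6 are GTPase members, best known as targets of interferon gamma. All 41 were among the 23060 gene symbols of the deposited table of FPKM, a fragment count scaled to transcript length and sequencing depth. The series concerned the conversion of adult endothelium to haematopoietic stem cells and held 30 RNA sequencing libraries of FACS-purified cells, of which 29 had a group.

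FGRS KLS cells (3 libraries) were adherent converted cells of the genotype labelled "derived", taken at day 28 of co-culture with HUVEC, human umbilical vein endothelial cells. FGRS is named in the published study after its factors, which are Fosb, Gfi1, Runx1 and Spi1. The rEC groups were freshly isolated cells of the genotype labelled "derived", and the control groups freshly isolated cells of the genotype labelled wild type. LKS-SLAM cells, a sorted marrow population enriched for stem cells, had 3 rEC and 3 control libraries. Blood gave Gr1+Cd11b+ myeloid cells (2 rEC, 2 control), B cells sorted on B220 (3 rEC, 3 control), Cd3+Cd4+ T cells, called CD4 here (2 rEC, 2 control), and Cd3+Cd8+ T cells, called CD8 (3 rEC, 3 control). Replicate 2 of the rEC LKS-SLAM and rEC B groups was titled as clone 47G1, primary. Replicate 3 of both groups, replicate 2 of the rEC CD4 group and replicates 2 and 3 of the rEC CD8 group were titled as secondary. The labels give neither age nor sex, nor whether replicates came from separate animals, so p-values measure only the spread between these libraries, which may be technical. They also do not say how much of a sorted rEC population came from a host. A bulk level cannot tell fewer cells of a type from less RNA per cell.

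Interferons are secreted proteins that cells release on sensing viral nucleic acids or on activation. Type I interferons bind the receptor chains Ifnar1 and Ifnar2, and the kinases Jak1 and Tyk2 then activate a complex that includes Stat2 and Irf9 and binds interferon-stimulated response elements. Interferon gamma, made mainly by T and natural killer cells, binds Ifngr1 and Ifngr2 and acts through GAS elements. The products of the target genes include RNA sensors, antiviral effectors and GTPases that act on intracellular microbes. Stem cells are known to show basal activity of several of these genes.

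The promoters are shown because the 2 kinds of element are written in them. RefSeq windows (GRCm38.p6) of 250 bases before to 50 bases after the annotated start were at hand for 31 of the 41 genes. GAAA followed by any 2 bases and a second GAAA, the core repeat of the interferon-stimulated response element, was searched on both strands and was present in 18 of the 31 windows (58.1%), against 3.99% of 27025 genes with a window. This repeat was present in 5 of 5 GTPase members and in 13 of 26 type I members. TTCNNNGAA, a core of GAS elements that reads the same on both strands in its outer bases, was present in 9 of the 31 windows (29%), against 9.55% of the same genes. Below are the 2 type I and the 2 GTPase members that passed the test in most comparisons among those with a match. Capitals mark the matches, and each sequence runs 5′ to 3′ on the strand of its gene. Rsad2 lies at chr12:26456403-26456702 on the minus strand, Isg20 at chr7:78913174-78913473 on the plus strand, Igtp at chr11:58199306-58199605 on the plus strand and Gbp7 at chr3:142530086-142530385 on the plus strand.
Rsad2: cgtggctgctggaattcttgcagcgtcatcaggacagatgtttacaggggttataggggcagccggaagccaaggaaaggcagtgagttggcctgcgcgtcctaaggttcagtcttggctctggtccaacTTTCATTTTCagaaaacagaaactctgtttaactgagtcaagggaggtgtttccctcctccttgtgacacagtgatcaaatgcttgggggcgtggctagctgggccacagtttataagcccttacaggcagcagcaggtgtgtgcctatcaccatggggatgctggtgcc
Isg20: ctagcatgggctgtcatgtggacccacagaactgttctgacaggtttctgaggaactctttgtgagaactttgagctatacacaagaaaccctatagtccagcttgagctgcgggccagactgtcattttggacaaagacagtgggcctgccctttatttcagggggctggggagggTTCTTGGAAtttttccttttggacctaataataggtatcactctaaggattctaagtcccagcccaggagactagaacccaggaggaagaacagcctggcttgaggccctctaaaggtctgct
Igtp: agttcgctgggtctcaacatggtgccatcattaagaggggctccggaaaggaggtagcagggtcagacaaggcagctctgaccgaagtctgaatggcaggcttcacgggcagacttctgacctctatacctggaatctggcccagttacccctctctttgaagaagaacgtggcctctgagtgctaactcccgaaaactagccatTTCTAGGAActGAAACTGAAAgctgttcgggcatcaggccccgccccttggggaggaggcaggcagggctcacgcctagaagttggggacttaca
Gbp7: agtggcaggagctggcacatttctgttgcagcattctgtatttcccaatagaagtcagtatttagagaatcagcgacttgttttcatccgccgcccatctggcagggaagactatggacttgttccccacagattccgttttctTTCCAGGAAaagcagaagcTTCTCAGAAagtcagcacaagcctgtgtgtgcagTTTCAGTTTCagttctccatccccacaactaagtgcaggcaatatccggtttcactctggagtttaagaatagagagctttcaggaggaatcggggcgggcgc
The GAAA repeat began 120 bases before the annotated start in Rsad2, 34 before it in Igtp and 53 before it in Gbp7, and in Rsad2 and Gbp7 it lay on the opposite strand. Isg20 held a TTCNNNGAA match, which began 73 bases before the start, and no GAAA repeat. Igtp held both motifs side by side, and Gbp7 held 1 GAAA repeat and 2 TTCNNNGAA matches. The matches are letters in a window and are not evidence of binding.

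Several members lie near each other in the mm10 annotation. Ifit1, Ifit2 and Ifit3 lie together on chromosome 19, Oas1a, Oas2 and Oas3 on chromosome 5, Oasl1 and Oasl2 at a separate place on that chromosome, Rsad2 and Cmpk2 on chromosome 12, Parp9, Dtx3l and Parp14 on chromosome 16, and Gbp2, Gbp3 and Gbp7 on chromosome 3. Parp9 (positions 35938470 to 35972605, plus strand) and Dtx3l (35926511 to 35939151, minus strand) overlap, and the libraries were not stranded, so their reads cannot be told apart where they do. The Ifit, Oas, Ifitm, Gbp and Irg families hold close paralogs, among which the counting could have split reads. Mx2 is annotated as a polymorphic pseudogene.

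Each library had 10165 to 12550 genes at 1 FPKM or more. Cell type markers departed from the sorted populations or differed between the groups in several places that touch the results. In the LKS-SLAM group, rEC LKS-SLAM replicate 2 stood apart: the mean log2(FPKM + 1) of 10 stem cell markers was 3.80 in it, against 5.97 to 6.79 in the other 5 LKS-SLAM libraries, and that of 12 cell cycle genes was 6.78, against 3.44 to 5.59. Among B cells, rEC replicate 1 carried T cell RNA: the mean of 10 T cell markers was 7.19 in it, against 0.77 to 0.97 in the other 5 B cell libraries. Natural killer cell markers averaged 0.61 to 4.81 over the rEC B libraries and 1.08 to 1.48 over the control B libraries. In the converted cells, stem cell markers averaged only 2.86 to 3.60 in the FGRS KLS libraries, while 8 macrophage markers averaged 3.78, 6.96 and 6.22 in them, against 1.03 to 4.16 in rEC and 1.48 to 1.64 in control LKS-SLAM libraries. Myeloid markers averaged 1.86 to 3.76 in rEC and 5.33 to 5.84 in control LKS-SLAM libraries. In CD8 libraries both B cell and myeloid markers were lower in rEC than in control cells, with the values given beside the CD8 result.

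The type I members were highest in blood myeloid cells and lowest in FGRS KLS cells, and the GTPase members were highest in T cells and in 2 of the 3 rEC LKS-SLAM libraries. On the log2(FPKM + 1) scale, the mean over the 35 type I members was 2.29 to 2.41 in FGRS KLS, 4.83 and 5.09 in rEC myeloid and 5.06 and 5.09 in control myeloid libraries. B cells lay at 3.01 to 3.28 in rEC and 3.19 to 3.23 in control libraries. The mean over the 6 GTPase members was 2.09 to 2.42 in FGRS KLS libraries. It was 5.36 and 5.39 in rEC CD4 libraries and 5.34 and 5.57 in control CD4 libraries. LKS-SLAM libraries lay at 5.41, 2.51 and 5.69 in rEC replicates 1 to 3 and at 4.70, 4.37 and 4.75 in the controls.

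**Figure D1:**
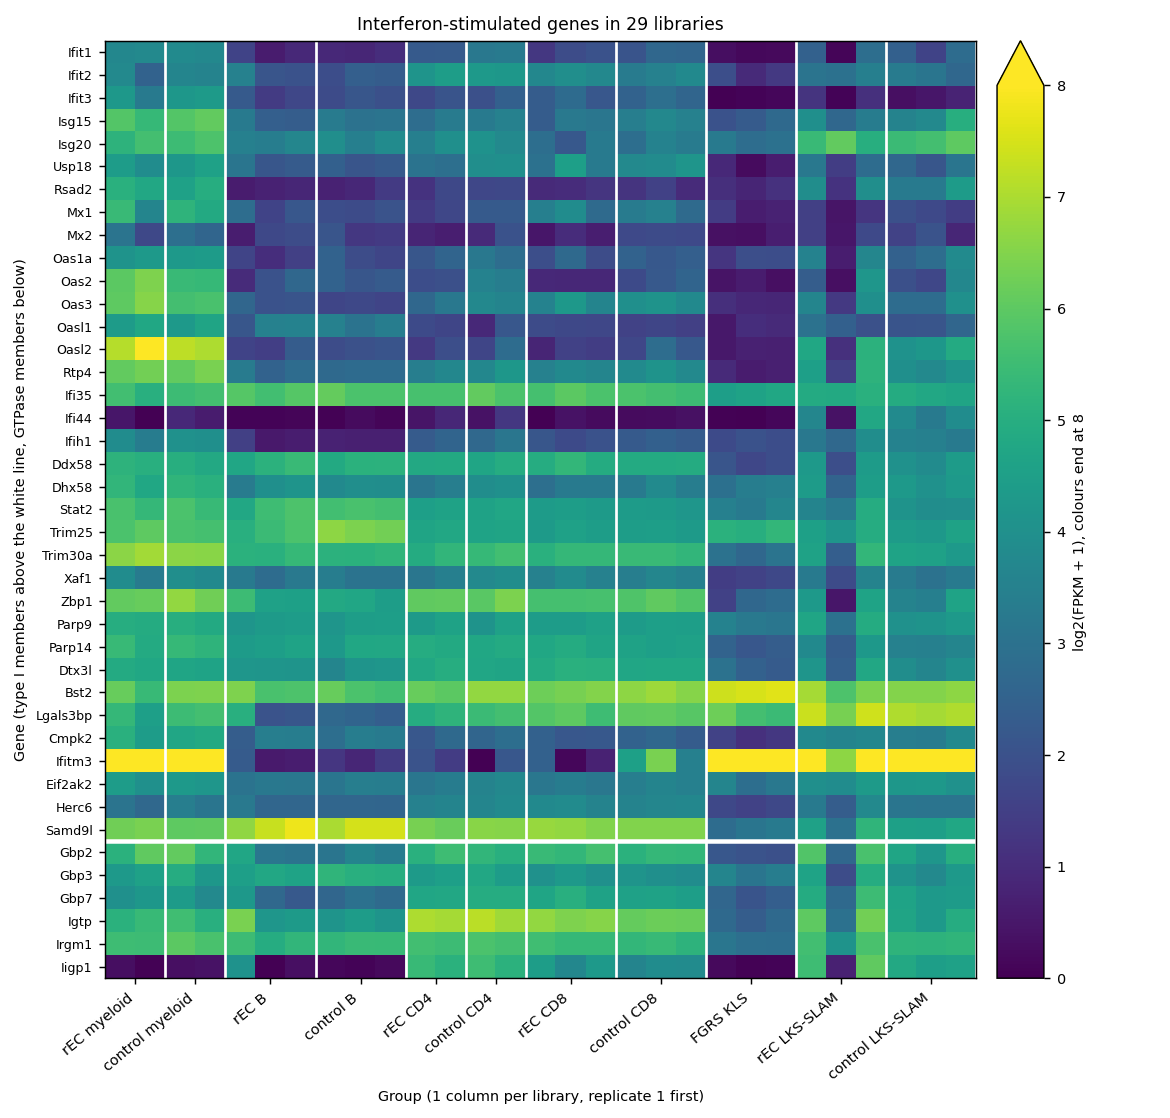
Each row is a gene and each column a library, and the colour gives log2(FPKM + 1), with the colour scale ending at 8. The columns of FGRS KLS and of rEC LKS-SLAM replicate 2 are dark over most rows. Ifitm3 is at the top of the scale in myeloid, FGRS KLS and most LKS-SLAM libraries. Samd9l stands out in most B cell libraries, and Trim25 in the control B libraries.

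**Figure D2:**
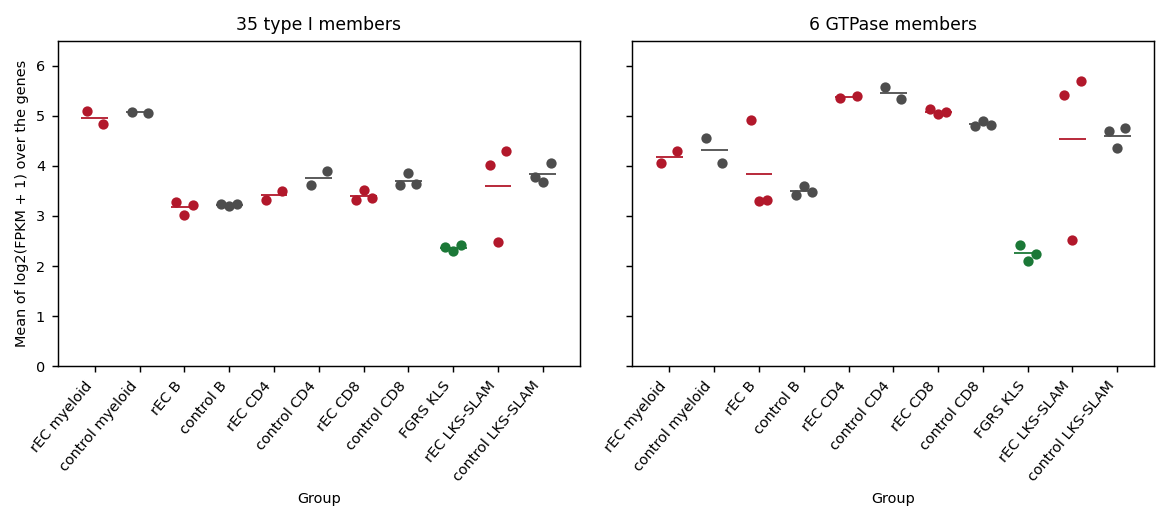
Points are libraries and short lines group means of log2(FPKM + 1) averaged over the 35 type I members (left) and the 6 GTPase members (right), with rEC in red, control in grey and FGRS KLS in green. FGRS KLS lies at 2.29 to 2.41 for the type I members, and rEC LKS-SLAM replicate 2 lies at 2.48, below the other LKS-SLAM libraries.

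FGRS KLS cells had lower levels of most of these genes than LKS-SLAM cells of either origin. Against control LKS-SLAM cells, 32 of 41 members fell (27 type I, 5 GTPase) and 2 rose, Bst2 and Trim25, or 34 in all. Of all 14083 genes tested 48.8% passed the test: 31.7% fell and 17.1% rose. After quantile normalisation 26 members fell and 1 rose, beside 20.3% and 20.9% of all genes. The test was limma's moderated test on log2(FPKM + 1) with Benjamini-Hochberg adjustment over all genes and a threshold of 0.05, and differences below are log2 differences on that scale with their SE. The median difference was −1.54 over the type I members and −2.15 over the GTPase members, beside −0.19 over all genes. Against rEC LKS-SLAM cells, 29 fell (24 type I, 5 GTPase), beside 27.8% of all genes, and the same 2 rose, beside 17.2% (31 called in all, beside 45.0%). The medians there were −1.21 and −2.31, beside −0.14 over all genes. The FGRS KLS libraries lay below every control library for 37 members and above for 2, where groups did not overlap for 58.6% of all genes. They lay below every rEC library for 21 and above for 2, where 33.3% of all genes did not overlap. Without rEC LKS-SLAM replicate 2, 36 members fell against rEC cells and 2 rose, beside 37.1% and 24.2% of all genes. When that comparison was fitted on its own 6 libraries, 3 members fell and none rose, beside 2.26% and 3.56% of all genes, and Bst2, Trim25, Iigp1, Oasl2, Rtp4 and Ifi44 lost their calls (adjusted p = 0.08924 to 0.2032).

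Among the effectors that act on viral RNA and replication, Oasl2, an oligoadenylate synthetase-like protein, had 0.433, 0.649 and 0.626 FPKM in FGRS KLS libraries. It had 26.1, 1.15 and 34.2 FPKM in rEC and 15.8, 17.7 and 28.3 FPKM in control LKS-SLAM libraries. The FGRS KLS libraries lay below all 6 others, by −3.02 ± 0.64 against rEC (adjusted p = 0.0007352) and −3.74 ± 0.64 against control cells (adjusted p = 8.565e-05). Rtp4, a receptor transporter protein with antiviral activity, had 0.927, 0.535 and 0.618 FPKM in FGRS KLS libraries, 21.6, 1.85 and 35 FPKM in rEC and 14.9, 12.7 and 16.5 FPKM in control LKS-SLAM libraries. It fell by 2.97 ± 0.52 and 3.21 ± 0.52 on the log2 scale against rEC and control cells. Ifi44 was almost undetected in FGRS KLS libraries, at 0.0284, 0 and 0.104 FPKM, against 11.8, 0.305 and 26.7 FPKM in rEC and 13.3, 8.81 and 13.7 FPKM in control LKS-SLAM libraries. Its differences were −2.89 ± 0.60 against rEC and −3.61 ± 0.60 against control cells.

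The interferon-gamma-induced GTPases were all lower, and all but Gbp3 passed the test. Iigp1, an immunity-related GTPase that acts at the vacuoles of intracellular parasites, had 0.155, 0.0401 and 0.0645 FPKM in FGRS KLS libraries, 44.3, 0.664 and 65.1 FPKM in rEC and 27.7, 21.6 and 22.9 FPKM in control LKS-SLAM libraries. That is a difference of −3.98 ± 0.94 against rEC and −4.52 ± 0.94 against control cells. Irgm1, a regulator of the same family, had 7.90, 6.53 and 6.38 FPKM in FGRS KLS libraries, 46.5, 16.4 and 50.6 FPKM in rEC and 35.4, 35.4 and 37.0 FPKM in control LKS-SLAM libraries. The FGRS KLS libraries again lay below all others, by −2.14 ± 0.25 and −2.22 ± 0.25. Gbp2, a guanylate-binding protein, differed by −2.68 ± 0.55 against rEC and −2.58 ± 0.55 against control cells, Gbp7 by −2.0 ± 0.48 and −2.07 ± 0.48, and Igtp by −2.48 ± 0.57 and −2.03 ± 0.57. Gbp3 did not pass the test, at −0.44 ± 0.46 (adjusted p = 0.4673) and −0.68 ± 0.46 (adjusted p = 0.2321). It had 11.5, 7.60 and 9.38 FPKM in FGRS KLS libraries, below the 16.4, 12.5 and 18.5 FPKM of the control LKS-SLAM libraries. In rEC LKS-SLAM libraries it had 23.8, 2.59 and 30.0 FPKM, so only rEC replicate 2 lay lower.

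Bst2 and Trim25 went the other way. Bst2, or tetherin, which holds budding virions at the cell surface, had 165, 180 and 199 FPKM in FGRS KLS libraries, 120, 52.9 and 84.6 FPKM in rEC and 90.5, 90.5 and 98.7 FPKM in control LKS-SLAM libraries, with no overlap. It rose by 1.14 ± 0.24 against rEC (adjusted p = 0.0006082) and 0.95 ± 0.24 against control cells (adjusted p = 0.002555). Under quantile normalisation the difference from control cells was 0.49 and lost its call (adjusted p = 0.1298). Trim25, a ubiquitin ligase that assists the sensor RIG-I, had 33.5, 31.2 and 38.4 FPKM in FGRS KLS libraries, 22.4, 17.1 and 29.9 FPKM in rEC and 20.1, 18.2 and 23.5 FPKM in control LKS-SLAM libraries. It rose by 0.58 ± 0.17 and 0.71 ± 0.17. The call against rEC cells was lost without FGRS KLS replicate 3 (adjusted p = 0.05081).

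Ifitm3, a membrane protein that blocks viral fusion, was among the most abundant members and did not pass the test. It had 357, 681 and 604 FPKM in FGRS KLS libraries, 574, 98.6 and 714 FPKM in rEC and 512, 439 and 457 FPKM in control LKS-SLAM libraries, and the groups overlapped (0.62 ± 0.73 against rEC, adjusted p = 0.5218, and 0.17 ± 0.73 against control cells, adjusted p = 0.8673). The difference from rEC cells was −0.28 without rEC LKS-SLAM replicate 2, and that from control cells −0.30 after quantile normalisation and −0.0117 without FGRS KLS replicate 2. Ifi35 had 21.3, 23.4 and 26.2 FPKM in FGRS KLS libraries, 28.8, 28.1 and 32.5 FPKM in rEC and 29.6, 26.5 and 24.2 FPKM in control LKS-SLAM libraries (−0.32 ± 0.15, adjusted p = 0.091, and −0.17 ± 0.15, adjusted p = 0.3665). Of the RNA sensors, Ddx58 (RIG-I) had 3.36, 2.27 and 2.73 FPKM in FGRS KLS libraries, 19.2, 2.81 and 20.1 FPKM in rEC and 15.5, 13.6 and 19.8 FPKM in control LKS-SLAM libraries.

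In 20 of 41 members every FGRS KLS library lay below all 6 LKS-SLAM libraries, as in 17.2% of all genes tested. Leaving rEC LKS-SLAM replicate 2 aside, the count was 35 of 41, beside 32.1% of all genes. The FGRS KLS mean was the lowest of the 11 groups for 31 of 41 members, all 6 GTPases included, and for 15.2% of all genes. Macrophage markers averaged 3.78, 6.96 and 6.22 in the FGRS KLS libraries, and the type I mean was 2.37, 2.29 and 2.41 in the same libraries. Cell cycle genes averaged 6.28 to 6.51 in FGRS KLS libraries, against 3.44 to 6.78 in rEC and 4.63 to 5.59 in control LKS-SLAM libraries. The 9 immediate early genes averaged 5.15 to 5.37 in FGRS KLS libraries, against 4.59 to 8.08 in rEC and 8.53 to 8.94 in control LKS-SLAM libraries. The part of these differences, and of the stem cell and macrophage markers given above, in the members' levels was not tested.

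The components of interferon signalling did not all move alike. Irf7, a transcription factor that amplifies interferon production, had 3.21, 3.07 and 3.76 FPKM in FGRS KLS libraries, 25.4, 4.26 and 19.9 FPKM in rEC and 18.2, 9.52 and 26.8 FPKM in control LKS-SLAM libraries. It fell by 1.72 ± 0.40 against rEC and 2.04 ± 0.40 against control cells, and Irf9 by 1.61 ± 0.24 and 1.79 ± 0.24. Receptor chains were higher or did not pass the test. Ifngr2 had 21.7, 32.9 and 30.4 FPKM in FGRS KLS libraries, 9.75, 7.92 and 8.15 FPKM in rEC and 7.99, 9.03 and 13.3 FPKM in control LKS-SLAM libraries, with no overlap. It rose by 1.59 ± 0.26 and 1.41 ± 0.26, and Ifnar2 by 0.96 ± 0.19 and 1.03 ± 0.19. Ifnar1 had 18.1, 17.2 and 17.1 FPKM in FGRS KLS libraries, against 5.66 to 19.3 FPKM in rEC and 14.5 to 17.4 FPKM in control LKS-SLAM libraries. Of 19 receptors and signalling genes, 8 fell and 3 rose against rEC cells, and 9 fell and 3 rose against control cells. Of all genes tested, 27.8% fell and 17.2% rose against rEC cells, and 31.7% fell and 17.1% rose against control cells. Irf8, a transcription factor of myeloid cells, rose by 3.17 ± 0.49 against rEC cells.

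Of 12 further genes of the GTPase families, 10 fell against rEC and 9 against control cells, and none rose. Tgtp2, a T cell GTPase, had 0.206, 0.252 and 0.108 FPKM in FGRS KLS libraries, 20.3, 1.28 and 20.5 FPKM in rEC and 6.71, 10.5 and 14.2 FPKM in control LKS-SLAM libraries. Of 30 further interferon-stimulated genes, 14 fell and 3 rose against rEC cells, and 14 fell and 1 rose against control cells. Of 13 nucleic acid sensors and adaptors, 1 fell and 5 rose against rEC cells, and 2 fell and 4 rose against control cells. Beside the counts of these lists, 27.8% of all genes fell and 17.2% rose against rEC cells. Against control cells 31.7% of all genes fell and 17.1% rose. Interferon transcripts themselves were scarce. Of 20 interferon genes 13 were listed at 0 in every library, and Ifnb1 (interferon beta) was listed at 0 in all but rEC LKS-SLAM replicate 3, at 0.226 FPKM.

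**Figure D3:**
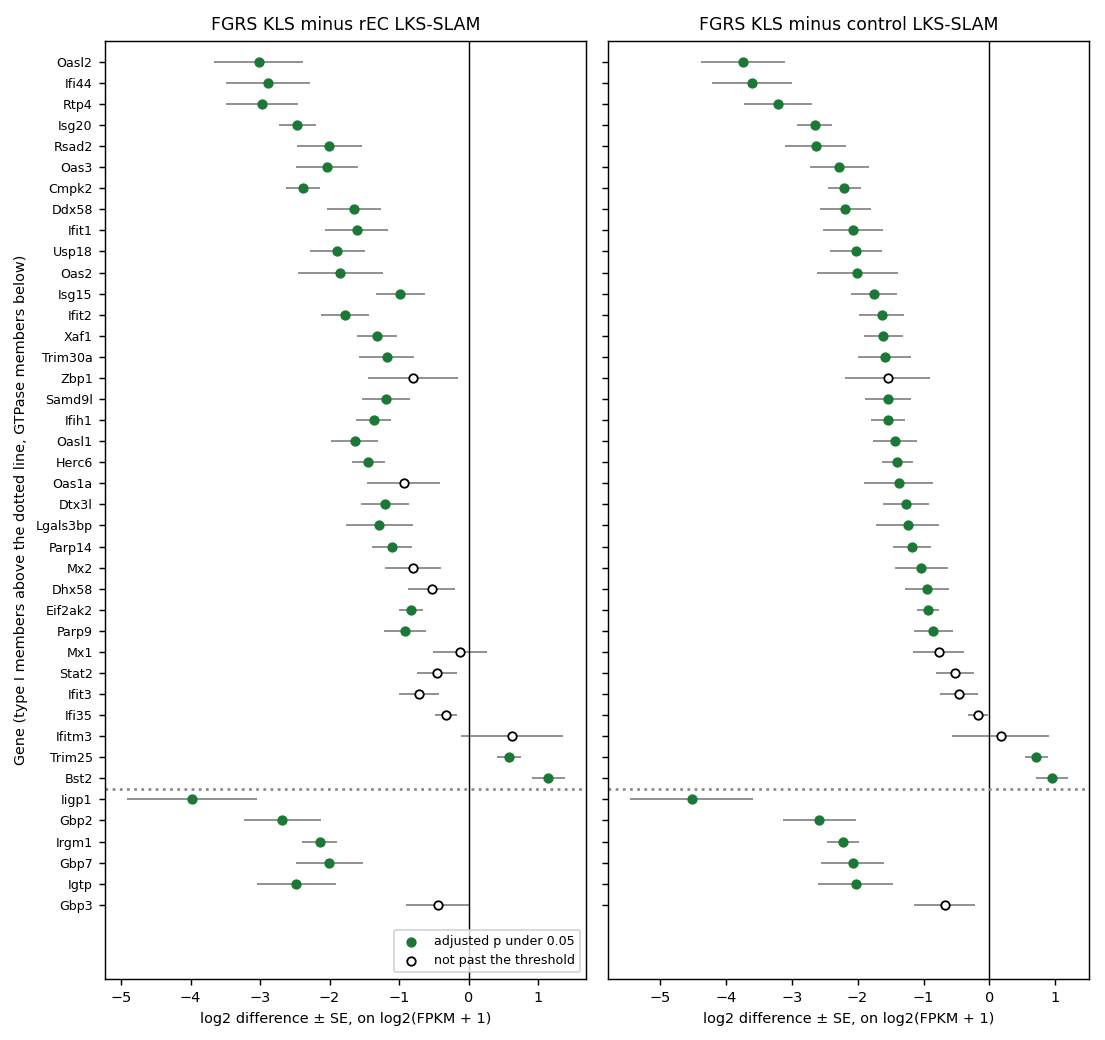
Points give the log2 difference of FGRS KLS from rEC LKS-SLAM (left) and from control LKS-SLAM (right) for each member, lines ± SE, filled points an adjusted p under 0.05. All points lie left of 0 except Bst2, Trim25 and Ifitm3, and Iigp1 lies farthest left in both panels, at −3.98 and −4.52.

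Between rEC and control LKS-SLAM cells the members did not differ past the threshold, and the 3 rEC libraries lay far apart. None of 41 members passed the test (limma; 1 member, Isg15, at an unadjusted p under 0.05), beside 1.32% of all genes (0.071% higher, 1.25% lower). No member had groups without overlap, against 6.44% of all genes. The median difference was −0.19, beside −0.05 over all genes. Replicate 2 was the lowest of the 6 LKS-SLAM libraries for 36 of 41 members, 30 type I and all 6 GTPase, as it was for 42.4% of all genes. Zbp1, a sensor of Z-form nucleic acids, had 18.8, 0.401 and 24.2 FPKM in rEC replicates 1 to 3, against 11, 9.98 and 24.1 FPKM in control libraries. Lgals3bp, a secreted glycoprotein, had 163, 81.9 and 171 FPKM in rEC libraries, against 130, 121 and 131 FPKM in control libraries, a difference of 0.05 ± 0.48 (adjusted p = 0.9957), which was 0.39 without rEC replicate 2 and negative without rEC replicate 1 or 3. In replicate 2 the cell cycle list was highest and the stem cell list lowest. Klf1, an erythroid regulator named after its values were seen, was at 201 FPKM in it (1.06 to 28.5 FPKM in the other 5). Klf1 is 1 gene of the list of erythroid markers. The mean over that whole list was 1.93 to 5.40 in rEC and 5.06 to 6.28 in control LKS-SLAM libraries, so no rEC library lay above the control range. The summed level of the list was 32.0 to 2301 FPKM in rEC and 328 to 1171 FPKM in control LKS-SLAM libraries. The part of these lists and of Klf1 in the result was not tested.

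Replicates 1 and 3 of the rEC LKS-SLAM group both lay above every control library for 15 of 41 members, among them all 6 GTPases, and below every control for 1, Isg20. Over all genes tested these shares were 15% and 14.4%. Igtp had 63.3 and 77.0 FPKM in these replicates and 6.86 FPKM in replicate 2, against 24.4, 18.5 and 30.2 FPKM in control libraries. Iigp1 had 44.3 and 65.1 FPKM in them and 0.664 FPKM in replicate 2, against 27.7, 21.6 and 22.9 FPKM in control libraries. Isg20, an RNA exonuclease, had 41.5, 66.5 and 31.2 FPKM in rEC replicates 1 to 3, against 42.9, 47.7 and 63.3 FPKM in control libraries.

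With replicate 2 left out, 6 members rose in rEC LKS-SLAM cells and none fell, where 3.24% of all genes rose and 5.69% fell. These were Igtp (1.51 ± 0.38, adjusted p = 0.0156), Rtp4 (0.87 ± 0.22, adjusted p = 0.01587), Gbp3 (0.74 ± 0.20), Parp9 (0.68 ± 0.15), Dtx3l (0.63 ± 0.19) and Irgm1 (0.42 ± 0.13), with 2 rEC and 3 control libraries. The median difference over the 6 GTPases was then 0.94 and over the type I members 0.32, and 37 of 41 members had a positive difference. Neither the median nor the share of positive differences over all genes was computed for this setting. Parp9 and Dtx3l, partners in a ubiquitin ligase complex, are the overlapping pair. Cell cycle genes averaged 3.75 and 3.44 in these 2 rEC libraries and 4.63 to 5.59 in control libraries, and myeloid markers 3.76 and 1.86 against 5.33 to 5.84. Immediate early genes averaged 8.08 and 8.05 in them and 8.53 to 8.94 in control libraries. The part of these lists in the result was not tested.

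**Figure D4:**
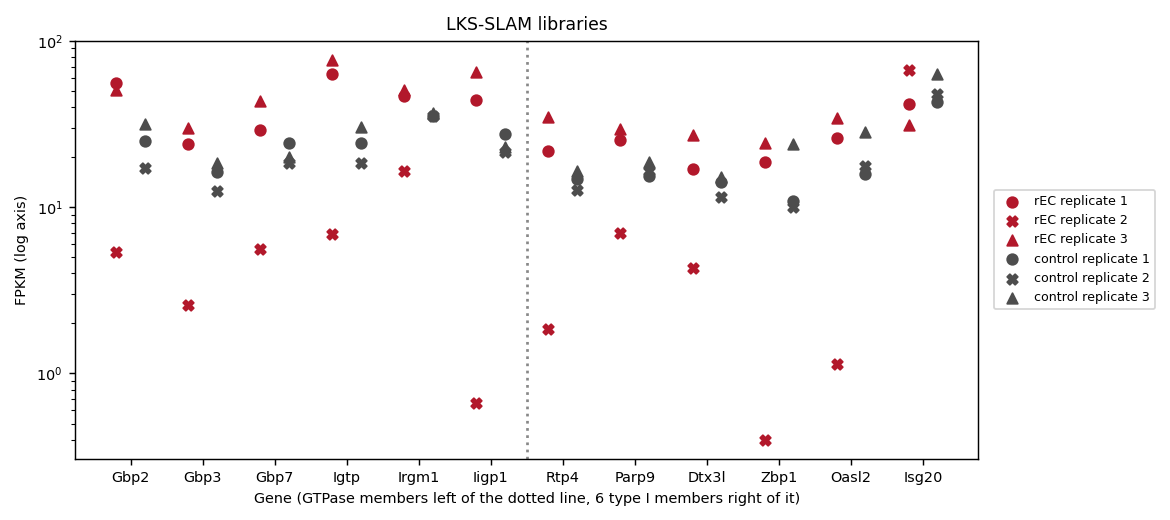
Points give FPKM on a log axis in the 3 rEC (red) and 3 control (grey) LKS-SLAM libraries for the 6 GTPases and 6 type I members, with a symbol for each replicate number. The crosses of rEC replicate 2 lie below all other points for every gene shown but Isg20, and the circles and triangles of rEC replicates 1 and 3 lie above every control for the 6 GTPases.

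In blood myeloid cells none of 41 members passed the test between rEC and control cells (limma; 1 at an unadjusted p under 0.05, Bst2), beside 0.227% of all genes (0.0639% higher), and the median difference was −0.13. The rEC libraries lay above both controls for 6 members and below both for 10, where groups did not overlap for 44.2% of all genes. Ifitm3 had 977 and 1093 FPKM in rEC myeloid libraries, against 1148 and 1189 FPKM in control myeloid libraries (−0.18 ± 0.90, adjusted p = 1). Oasl2 had 137 and 256 FPKM in rEC myeloid libraries, against 147 and 129 FPKM in control myeloid libraries (0.44 ± 0.79, adjusted p = 1), a difference of −0.0049 without rEC myeloid replicate 2.

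In B cells none of 41 members passed the test either (limma; 1 at an unadjusted p under 0.05), beside 0.0% of all genes. Groups did not overlap for 1 member higher and 3 lower in rEC cells, and for 6.94% of all genes. The member at the unadjusted threshold was Trim25, with 32.1, 42.9 and 52.1 FPKM in rEC B libraries, against 98.7, 84.9 and 77.7 FPKM in control B libraries. The groups did not overlap, and the difference was −1.04 ± 0.17 (adjusted p = 0.07328). It passed the threshold under quantile normalisation (adjusted p = 0.02892), with no filter on low values, with library quality weights and without rEC B replicate 3. Without rEC B replicate 1, the library with T cell RNA, the difference was −0.86 (adjusted p = 0.5774). Samd9l, an antiproliferative factor, had 102, 160 and 223 FPKM in rEC B libraries, against 127, 177 and 177 FPKM in control B libraries (−0.04 ± 0.35, adjusted p = 1), and the difference was 0.26 without rEC B replicate 1. Replicate 1 was the highest of the 6 B libraries for 18 of 41 members and for 32.9% of all genes. In it Cd3e, a chain of the T cell receptor complex named after its values were seen, was at 198 FPKM (0.0675 to 0.393 FPKM in the other 5). Iigp1 was at 16.0 FPKM in it, against 0 and 0.243 FPKM in rEC replicates 2 and 3 and 0.0584 to 0.143 FPKM in control B libraries. Its B cell marker mean was 6.79, against 8.66 to 8.93 in the other 5 libraries, and the part of these cells in the members' values was not tested.

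In CD4 T cells none of 41 members passed the test (limma; 1 at an unadjusted p under 0.05, Bst2), beside 0.0213% of all genes (0.0142% higher, 0.0071% lower). The median difference was −0.28, beside −0.01 over all genes. Both rEC libraries lay below both control libraries for 21 members and above both for 2, Trim25 and Dtx3l, where the groups did not overlap for 37.3% of all genes. Other lists were lower in rEC CD4 libraries too. T cell markers averaged 6.34 and 6.63 in rEC and 7.07 and 6.92 in control CD4 libraries, with summed levels of 1846 to 2256 FPKM in rEC and 2638 to 2802 FPKM in control libraries and none of the 10 at 0. Immediate early genes averaged 3.30 and 4.16 in rEC and 4.86 and 4.55 in control CD4 libraries, and cell cycle genes 2.21 and 2.30 in rEC and 2.73 and 2.59 in control libraries. The part of these lists in the members' values was not tested. Bst2 had 69.2 and 61.7 FPKM in rEC CD4 libraries, against 102 and 104 FPKM in control CD4 libraries (−0.65 ± 0.29, adjusted p = 1). Igtp had 129 and 121 FPKM in rEC CD4 libraries, against 143 and 114 FPKM in control CD4 libraries (−0.03 ± 0.70, adjusted p = 1), and this small difference changed sign after quantile normalisation (0.0227).

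In CD8 T cells 1 member fell, Ifitm3, and none rose, beside 1.13% of all genes called (0.987% lower, 0.142% higher). The rEC libraries lay below all controls for 10 members and above for 7, where 30.5% of all genes did not overlap. It had 4.6, 0.1 and 0.705 FPKM in rEC CD8 libraries, against 22.2, 83.3 and 10.3 FPKM in control CD8 libraries, with no overlap (−3.68 ± 0.73, adjusted p = 0.01006). The call was lost without rEC CD8 replicate 2 (adjusted p = 0.1036), without rEC CD8 replicate 3 (0.05719), without control CD8 replicate 2 (0.1308) and when only these 6 libraries were fitted (0.1067). Markers of other cells moved with it. The mean of 10 myeloid markers was 1.55 to 2.01 in rEC and 3.09 to 4.18 in control CD8 libraries, with 2 to 4 of the 10 at 0 in rEC and none in control libraries, and their summed level was 318 to 701 FPKM in rEC and 600 to 1309 FPKM in control libraries. Lyz2, a lysozyme of myeloid cells named after its values were seen, had 13.3, 0.371 and 1.25 FPKM in rEC CD8 libraries, against 121, 638 and 64.3 FPKM in control CD8 libraries. The mean of 9 B cell markers was 0.63 to 2.51 in rEC and 3.97 to 5.10 in control CD8 libraries, and the part of either in the Ifitm3 result was not tested. Ifitm2, a neighbour of Ifitm3 in its family, fell by 2.94 (adjusted p = 0.0044), and Irf8 by 2.36 (adjusted p = 0.01524).

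The 6 GTPases had small positive differences in CD8 T cells, between 0.13 and 0.41, and none passed the test. Samd9l had 108, 103 and 89.3 FPKM in rEC CD8 libraries, against 89.2, 89.0 and 89.1 FPKM in control CD8 libraries (0.16 ± 0.35, adjusted p = 1). Bst2 had 74.2, 80.4 and 89.9 FPKM in rEC CD8 libraries, against 99.3, 114 and 92.8 FPKM in control CD8 libraries (−0.32 ± 0.24, adjusted p = 1). Ifng, interferon gamma itself, had 3.50, 1.90 and 2.25 FPKM in rEC CD8 libraries, against 18.8, 6.09 and 5.60 FPKM in control CD8 libraries, without overlap and short of the threshold (−1.48 ± 0.51, adjusted p = 0.2828).

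Averaged over the 5 cell types, no member passed the test for origin (limma; 4 at an unadjusted p under 0.05: Isg15, Mx2, Bst2 and Eif2ak2, all with negative differences), beside 0.895% of all genes. The median difference was −0.20 over the type I members and 0.09 over the GTPase members. Bst2 had the mean difference −0.33 ± 0.12 (adjusted p = 0.2658). A test of whether the 5 origin differences differed from each other called no member (limma; 2 at an unadjusted p under 0.05), beside 0.277% of all genes. Trim25 came nearest, with an adjusted p of 0.07836. Without rEC LKS-SLAM replicate 2 and rEC B replicate 1, the mean over cell types called 2 members, Igtp higher and Bst2 lower, beside 4.99% of all genes, a like share. The test between cell types then called 6, beside 3.91% of all genes, which were Ifitm3, Igtp, Iigp1, Irgm1, Rtp4 and Trim25.

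Among control cells the type I members were highest in myeloid cells. Myeloid cells had the highest mean of the 5 control groups for 25 of 41 members (23 type I), as for 17% of all genes, and LKS-SLAM cells for 3 (Isg20, Ifi44 and Lgals3bp), as for 40.3% of all genes. CD4 T cells were highest for 7, beside 18% of all genes, B cells for 5 (Ddx58, Stat2, Trim25, Samd9l and Gbp3), beside 16.5%, and CD8 T cells for 1, Dtx3l, beside 8.18%, so none of these counts stood above the share over all genes. B cells were lowest for 21 members, beside 14.8% of all genes, LKS-SLAM cells for 13, beside 14.3%, and myeloid cells for none, beside 46.8%. The comparisons below share the 3 control LKS-SLAM libraries. The median of all genes in them was −0.61, −0.25, −0.21 and −0.21 in myeloid, B, CD4 and CD8 cells, and between −0.03 and 0.08 after quantile normalisation.

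In control myeloid cells 22 members rose against control LKS-SLAM cells and 3 fell, where 17.4% of all genes rose and 49.1% fell (66.5% in all). After quantile normalisation 32 rose and 3 fell, beside 29.2% and 30.6% of all genes. Groups did not overlap for 32 members higher and 4 lower, beside 81.1% of all genes, and the median difference was 1.28 over the type I members. Ifit3, a gene of the Ifit family, had 18 and 19.6 FPKM in myeloid libraries, against 0.252, 0.411 and 0.754 FPKM in LKS-SLAM libraries (3.76 ± 0.33, adjusted p = 2.912e-09). Mx1, a dynamin-like GTPase against influenza viruses, had 36.2 and 28.3 FPKM in myeloid libraries, against 2.83, 2.39 and 1.74 FPKM in LKS-SLAM libraries (3.33 ± 0.43). Oasl2 had 147 and 129 FPKM in myeloid libraries, against 15.8, 17.7 and 28.3 FPKM in LKS-SLAM libraries (2.72 ± 0.72), and Oas2, a synthetase of the RNase L pathway, rose by 2.93 ± 0.69. None of these groups overlapped. Iigp1 fell, with 0.256 and 0.306 FPKM in myeloid libraries, against 27.7, 21.6 and 22.9 FPKM in LKS-SLAM libraries (−4.28 ± 1.05, adjusted p = 0.001129). Ifi44 fell by 2.91 ± 0.68 and Lgals3bp by 1.45 ± 0.54, a call that was lost without either myeloid library (adjusted p = 0.09736 and 0.07112). Ifitm3 had 1148 and 1189 FPKM in myeloid libraries, against 512, 439 and 457 FPKM in LKS-SLAM libraries, without overlap. It did not pass the test (1.32 ± 0.82, adjusted p = 0.1625), whose spread is shared over all groups. It passed after quantile normalisation (2.32, adjusted p = 0.01773) and when only the compared groups were fitted (1.32, adjusted p = 0.0003287). Bst2 had 84.1 and 86.2 FPKM in myeloid libraries, against 90.5, 90.5 and 98.7 FPKM in LKS-SLAM libraries (−0.13 ± 0.27, adjusted p = 0.6894).

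In control B cells 8 members rose and 15 fell, where 18.9% of all genes rose and 36.7% fell (55.6% in all). Groups did not overlap for 11 members higher and 19 lower, beside 65.6% of all genes. After quantile normalisation 11 rose and 11 fell, beside 32.3% and 25.4% of all genes. The 8 were Samd9l, Trim25, Stat2, Parp14, Ddx58, Ifi35, Ifit3 and Oasl1. Samd9l had 127, 177 and 177 FPKM in B libraries, against 22.2, 22.1 and 26.4 FPKM in LKS-SLAM libraries (2.70 ± 0.35, adjusted p = 1.051e-06). Trim25 had 98.7, 84.9 and 77.7 FPKM in B libraries, against 20.1, 18.2 and 23.5 FPKM in LKS-SLAM libraries (2.03 ± 0.17, adjusted p = 3.321e-09). Stat2, the type I signal transducer, had 47, 50.9 and 47.6 FPKM in B libraries, against 16.3, 14.0 and 14.6 FPKM in LKS-SLAM libraries (1.63 ± 0.29). The largest falls were those of Ifitm3 (1.38, 0.828 and 1.63 FPKM in B libraries, −7.70 ± 0.73), Iigp1 (−4.50 ± 0.94) and Lgals3bp (−4.45 ± 0.48). Irgm1 had 37.1, 42.2 and 41 FPKM in B libraries, against 35.4, 35.4 and 37.0 FPKM in LKS-SLAM libraries (0.15 ± 0.25, adjusted p = 0.6341).

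T cells of both kinds combined high Samd9l, Zbp1 and Igtp with low Ifitm3 and Ifi44. In control CD4 cells 9 members rose and 8 fell against LKS-SLAM cells, where 18.6% of all genes rose and 32.0% fell (50.5% in all), and groups did not overlap for 23 members higher and 11 lower, beside 71.0% of all genes. In control CD8 cells 9 rose and 8 fell, where 17.0% rose and 33.2% fell (50.2% in all), and groups did not overlap for 16 members higher and 12 lower, beside 69.2% of all genes. After quantile normalisation 15 rose and 7 fell in CD4 cells, beside 29.1% and 23.9% of all genes, and 16 rose and 8 fell in CD8 cells, beside 29.8% and 24.2%. Igtp had 143 and 114 FPKM in CD4 and 68.2, 71.9 and 71.7 FPKM in CD8 libraries, against 24.4, 18.5 and 30.2 FPKM in LKS-SLAM libraries (2.37 ± 0.64, adjusted p = 0.003857, and 1.52 ± 0.57, adjusted p = 0.0301). The CD8 call was lost without any 1 of the CD8 libraries or without LKS-SLAM replicate 1 or 2 (adjusted p = 0.0601 to 0.09792). Zbp1 had 60.4 and 85.3 FPKM in CD4 and 54.5, 64.7 and 56.1 FPKM in CD8 libraries, against 11, 9.98 and 24.1 FPKM in LKS-SLAM libraries (2.29 ± 0.73 and 2.0 ± 0.65). Those calls were lost without CD4 replicate 2 (adjusted p = 0.08884) and without LKS-SLAM replicate 2 (0.05599). Usp18, which removes Isg15 from proteins, rose by 1.34 ± 0.44 in CD4 cells, a call that was lost without either CD4 library or LKS-SLAM replicate 2 (adjusted p = 0.06845 to 0.07043).

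Ifitm3 was listed at 0 and at 3.49 FPKM in the CD4 libraries and had 22.2, 83.3 and 10.3 FPKM in the CD8 libraries, far below the 439 to 512 FPKM of the LKS-SLAM libraries (−7.79 ± 0.82 and −4.07 ± 0.73). Ifi44 fell by 2.82 ± 0.68 in CD4 and 3.39 ± 0.60 in CD8 cells. Rsad2, or viperin, whose promoter is shown above, had 2.25 and 2.36 FPKM in CD4 and 1.30, 1.90 and 0.987 FPKM in CD8 libraries, against 8.89, 8.57 and 19.9 FPKM in LKS-SLAM libraries (−1.93 ± 0.52 and −2.41 ± 0.47). Isg20 had 6.39, 10.6 and 9.06 FPKM in CD8 libraries, against 42.9, 47.7 and 63.3 FPKM in LKS-SLAM libraries (−2.44 ± 0.27, adjusted p = 1.918e-07). Oasl2 fell by 2.15 ± 0.72 in CD4 cells, a call that was lost without CD4 replicate 1 (adjusted p = 0.1844) or LKS-SLAM replicate 3 (0.05365). Of the 12 further GTPase family genes 8 rose in each T cell group and none fell. Of all genes, 18.6% rose and 32.0% fell in CD4 cells, and 17.0% rose and 33.2% fell in CD8 cells. Ifng had 14.4 and 5.22 FPKM in CD4 and 18.8, 6.09 and 5.60 FPKM in CD8 libraries, against 0, 0.776 and 0.871 FPKM in LKS-SLAM libraries, and rose by 2.71 in both. Bst2 had 102 and 104 FPKM in CD4 and 99.3, 114 and 92.8 FPKM in CD8 libraries, against 90.5, 90.5 and 98.7 FPKM in LKS-SLAM libraries, and did not pass the test in either.

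Irf7 rose in myeloid (3.51), CD4 (1.99) and CD8 cells (1.68) but not past the threshold in B cells (0.85, adjusted p = 0.07489). Among other interferon-stimulated genes, Slfn1, a schlafen family gene, had 395 and 360 FPKM in myeloid libraries, 267 and 247 FPKM in CD4 libraries and 122, 140 and 168 FPKM in CD8 libraries, against 0.648, 0.752 and 2.82 FPKM in LKS-SLAM libraries. Of the 30 genes of that list 15 rose and 3 fell in myeloid cells, 15 rose and 4 fell in B cells, 17 rose and 5 fell in CD4 cells and 15 rose and 5 fell in CD8 cells. In the same order, 17.4%, 18.9%, 18.6% and 17.0% of all genes rose, and 49.1%, 36.7%, 32.0% and 33.2% fell.

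**Figure D5:**
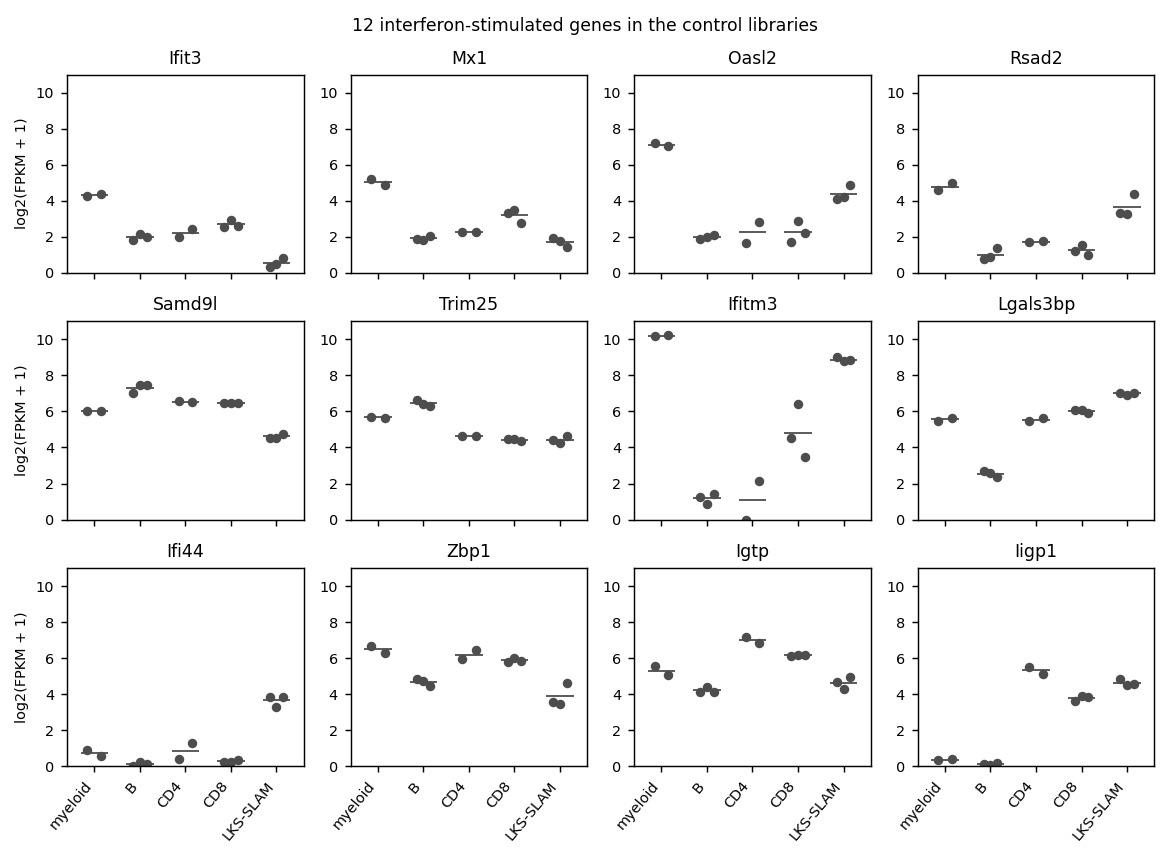
Points are control libraries and short lines group means of log2(FPKM + 1) for 12 members in 4 blood cell types and LKS-SLAM cells. Ifit3, Mx1, Oasl2 and Rsad2 are highest in myeloid cells, Samd9l and Trim25 in B cells, Lgals3bp and Ifi44 in LKS-SLAM cells and Igtp and Iigp1 in CD4 cells.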

How the data were processed

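Poly-A-selected, non-stranded RNA libraries of FACS-purified cells were sequenced as paired ends on an Illumina HiSeq instrument, per the labels' protocols. The submitters' processing notes name the mouse build mm10 with Cufflinks 2.2.1 and TopHat2 2.1.0, and Trimmomatic 0.36, FastQC 0.11.5 and bcl2fastq 2.17. The authors deposited 1 table of FPKM per gene and library, which is normalised for length and depth and holds no counts, so absolute depth is unknown. The spacing of low values gives relative depths of 0.588 to 1.132 between libraries, and summed FPKM ranged between 510115 and 727885.

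Values were tested as log2(FPKM + 1) with limma 3.58.1 in R 4.3.3 (1 mean per group over 29 libraries, intensity trend, 18 residual degrees of freedom). The fit took the 14083 genes that reached 1 FPKM in 2 or more libraries, and all 41 members passed this filter. P-values were adjusted by Benjamini-Hochberg over those genes. A pseudocount of 1 understates changes of low genes. The fit was tested on simulated data. Alternatives were a pseudocount of 0.1, other filters, quantile normalisation, library quality weights (gene-by-gene method, chosen after the default did not converge), the compared groups alone, a replicate block, and leaving out libraries. Left out of the fit was 1 B220+ library whose title names clone 47G1 while its genotype label is wild type.

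The members and lists were chosen with earlier results of these data known. Named per comparison were up to 4 called members per direction with the largest difference (mean of at least 5 FPKM) and up to 2 not called, and up to 3 called genes of the other lists; Irf7, Irf9, the receptor chains, Ifnb1 and Ifng could be named anywhere, and 1 further gene of that rule is not reported here. Other genes were named after their values were seen. Positions come from GENCODE vM21, sequences from RefSeq (GRCm38.p6).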

Additional observations from a re-analysis of the deposited data

Results flagged for a closer look

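Rsad2 stood at 3.51 FPKM in the B220+ library that was left out of the groups and that the comparisons do not use. Its title names clone 47G1, primary, while its genotype label is wild type. It lay above the 3 control B libraries, at 0.701, 0.858 and 1.55 FPKM, and above the 3 rEC B libraries, at 0.535 to 0.824 FPKM.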

How the results depend on the processing

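Of 880 alternative values for the named members, 821 kept direction and side of the threshold, 26 lost and 15 gained a call, and 18 changed sign, all of them for members called neither before nor after. Ifitm3 in rEC against control LKS-SLAM cells was 0.28 with library quality weights, 0.45 without both libraries set apart and −0.97 to 0.45 leaving out 1 library. In FGRS KLS cells it was −0.28 against rEC cells without both libraries set apart (−0.28 to 1.14 leaving out 1 library), and −0.30 against control cells under quantile normalisation (−0.0117 to 0.45 leaving out 1). Samd9l in rEC against control B cells was 0.11 with weights and 0.26 without both libraries set apart (−0.31 to 0.26 leaving out 1). Igtp in CD4 cells was 0.0227 under quantile normalisation (−0.19 to 0.14 leaving out 1). Leaving out 1 library gave −0.14 to 0.39 for Lgals3bp in LKS-SLAM and −0.0049 to 0.89 for Oasl2 in myeloid cells. The counts of called members moved as follows, and the cause was not tested. With library quality weights they were 3 in rEC LKS-SLAM, 1 in rEC myeloid, 1 in rEC B and 5 in rEC CD8 cells, 6 for the mean over cell types, 6 for the test between cell types, and 28 each in control CD4 and CD8 cells. Over all genes these weights called 8.66%, 2.51%, 0.781%, 12.2%, 10.9%, 9.35%, 65.9% and 70.6% in the same order. Without rEC LKS-SLAM replicate 2 and rEC B replicate 1 they were 9, 2 and 6 for rEC LKS-SLAM, the mean and the test between cell types, and 29 and 26 in control CD4 and CD8 cells, beside 11.1%, 4.99%, 3.91%, 62.6% and 62.1% of all genes. With no filter, and under quantile normalisation, there was 1 in rEC B cells, beside 0.0207% and 0.0071% of all genes. In the test between cell types there was also 1 under each, beside 0.699% and 0.327% of all genes. With only the compared groups fitted there were 0 in rEC CD8 cells, 3 in FGRS KLS against rEC cells and 27 in control CD8 cells, beside 0.582%, 5.82% and 60.7% of all genes.

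Leaving out 1 library at a time gave 0 to 6 for rEC LKS-SLAM (6 without replicate 2), 0 to 1 for rEC B and rEC CD8, 0 to 2 for the test between cell types, 0 throughout for rEC myeloid, rEC CD4 and the mean, 29 to 31 and 23 to 38 for FGRS KLS against control and rEC cells, and 19 to 25, 19 to 21, 10 to 14 and 13 to 16 for control myeloid, B, CD4 and CD8 cells. The 10 came without control CD4 replicate 1. The test between cell types called 2 without rEC LKS-SLAM replicate 2. It called 1 (Trim25) without rEC LKS-SLAM replicate 3, control LKS-SLAM replicate 3 or rEC B replicate 3. In the same order it called 2.46%, 0.376%, 1.31% and 0.327% of all genes. The shares of all genes called moved in other comparisons too. Against rEC cells FGRS KLS had 61.3% called without rEC LKS-SLAM replicate 2 and 33.3% without rEC replicate 3, against 45.0% with all libraries. Leaving out 1 library gave 39.4% to 47.9% in FGRS KLS against control cells. It gave 49.0% to 53.1% in control B and 43.6% to 48.2% in control CD8 cells. Where leaving out 1 library left 1 library in a group, its spread was taken from the other groups. That holds for control CD4 cells without replicate 1, where fewer of all genes were called too.

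In the comparisons checked, deviations of same-numbered libraries from their group means were weakly correlated (−0.089 to 0.091). Such correlations cannot tell whether same-numbered libraries shared an animal or a batch. With a replicate block the counts were 0 in rEC myeloid, 34 in FGRS KLS against control, and 23, 22, 16 and 16 in control myeloid, B, CD4 and CD8 cells, against 0, 34, 25, 23, 17 and 17 without it. Of 14083 genes, 29, 6625, 9220, 7624, 6812 and 6848 were called with the block in the same order. Without it 32, 6870, 9364, 7832, 7116 and 7069 were called. Quantile normalisation moved the share of higher calls among all genes to 50.7% for FGRS KLS against control cells, 48.8%, 55.9%, 54.9% and 55.2% for control myeloid, B, CD4 and CD8 cells and 43.6%, 27.8% and 62.3% for rEC LKS-SLAM cells, rEC CD8 cells and the mean over cell types, against 35.1%, 26.2%, 33.9%, 36.7%, 33.8%, 5.38%, 12.6% and 46% without it. No called member changed sign under it.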
